A study of Mus musculus with 8 samples.

Results

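The genes of the vascular endothelial growth factor family and their receptors were taken by gene symbol from the array table: the ligand genes Pgf, Vegfa, Vegfb and Vegfc, the receptor genes Flt1, Kdr and Flt4, and the co-receptor genes Nrp1 and Nrp2. These are 9 of 19933 genes measured, and each of the 9 was read by 1 probe set. The RNA came from the left ventricle of C57/Bl6 mice at 11 weeks of age and was hybridised to Affymetrix mouse gene 1.0 ST arrays. There were 2 PlGF arrays, 3 arrays labelled PlGF/RGS4 (PlGF/RGS4 in the names of comparisons) and 3 control arrays. The labels give 6 weeks of transgene expression for PlGF and PlGF/RGS4, and call the control arrays controls for that time. PlGF mice carried the responder TRE-PlGF and the driver αMHC-tTA, a tetracycline transactivator made in cardiac muscle cells, and PlGF/RGS4 mice carried TRE-PlGF/RGS4 with the same driver. Controls were littermates that inherited 1 transgene only, either responder or driver. All 3 groups had received doxycycline in the diet, which holds the TET-OFF system silent, until 5 weeks of age. The labels call the arrays biological replications and give no sex. The question of the design was how vessel growth with and without cardiac hypertrophy differs, the second being the purpose of adding RGS4, a regulator of G protein signalling.

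In this family secreted ligands bind receptor tyrosine kinases on endothelial cells. PlGF and VEGF-B bind VEGFR1 (Flt1), VEGF-A binds both VEGFR1 and VEGFR2 (Kdr), and VEGF-C acts mainly through VEGFR3 (Flt4), best known from lymphatic vessels. VEGFR2 carries most of the signal for endothelial division and migration, whereas VEGFR1 binds VEGF-A tightly but signals weakly and exists in a soluble form that traps ligand. Neuropilin 1 and neuropilin 2 are co-receptors that present VEGF to these kinases and also bind class 3 semaphorins.

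After 6 weeks, the family in PlGF hearts was led by Pgf itself and by Kdr, while Flt1, the receptor that PlGF binds, overlapped the controls, with an interval of its log2 fold change from −0.19 to 0.17. Both PlGF arrays lay above every control array for Pgf, Kdr, Nrp1 and Nrp2, and below every control array for Vegfa and Vegfb. In the arrays labelled PlGF/RGS4 all 9 genes overlapped the controls. None of the 9 passed the test over all genes (limma, all 8 arrays in 1 fit, adjusted p under 0.05) in any of the 3 comparisons. Over all genes, 2.53% passed in PlGF versus control (1.79% higher, 0.748% lower). The shares were 0.0151% between PlGF/RGS4 and control and 1.19% between PlGF and PlGF/RGS4 (1.1% higher, 0.0853% lower).

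Several facts of the arrays touch every value that follows. The Rgs4 probe set gave 235 and 194.9 intensity units for PlGF, 233.7, 186.9 and 229.3 for the arrays labelled PlGF/RGS4, and 209.5, 277.1 and 281.5 for control, so neither Rgs4 nor Pgf, given next, read above the control range in the 3 arrays of that label. Whether the probe sets lie in the transcribed part of the transgenes was not given in the sources used here. Xist, which is read from the inactive X chromosome, was low in 3 arrays, namely PlGF replicate 1, PlGF/RGS4 replicate 2 and control replicate 2. PlGF replicate 1 also stood apart over all genes, with a mean correlation of 0.974 with the arrays of the other groups, against 0.991 to 0.993 for the other 7 arrays. All 3 groups read high in cardiac muscle genes, with summed intensities of 16 cardiomyocyte markers from 158726 to 192607.

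Pgf encodes placental growth factor, the product of the transgene. Its intensity, the linear brightness value of its probe set, was 4136.3 and 916.6 in the PlGF arrays, against 211.1, 348.9 and 387.1 in control. The arrays labelled PlGF/RGS4 read 300.0, 229.0 and 210.8 and overlapped the controls. The PlGF arrays were thus both above all others but differed widely from each other, at 13.5-fold and 2.99-fold the control mean of log2 values. The log2 fold change of PlGF over control was 2.67 ± 0.58 (SE; 95% interval 1.32 to 4.02; limma adjusted p = 0.0601; exact permutation, two-sided, p = 0.1). Exact permutation of 2 arrays against 3, or 3 against 3, cannot give a p under 0.1. For PlGF over PlGF/RGS4 the log2 fold change was 2.99 ± 0.58 (limma adjusted p = 0.0622). PlGF/RGS4 differed from control by −0.32 ± 0.52, with an interval from −1.53 to 0.88. Without PlGF replicate 1 the change from control was 1.58, and without PlGF replicate 2 it was 3.75. In the alternatives that kept all 8 arrays, the adjusted p of Pgf ran from 0.0508 to 0.524 over the limma fits and the t-test. Pgf passed in none of them.

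**Figure D1:**
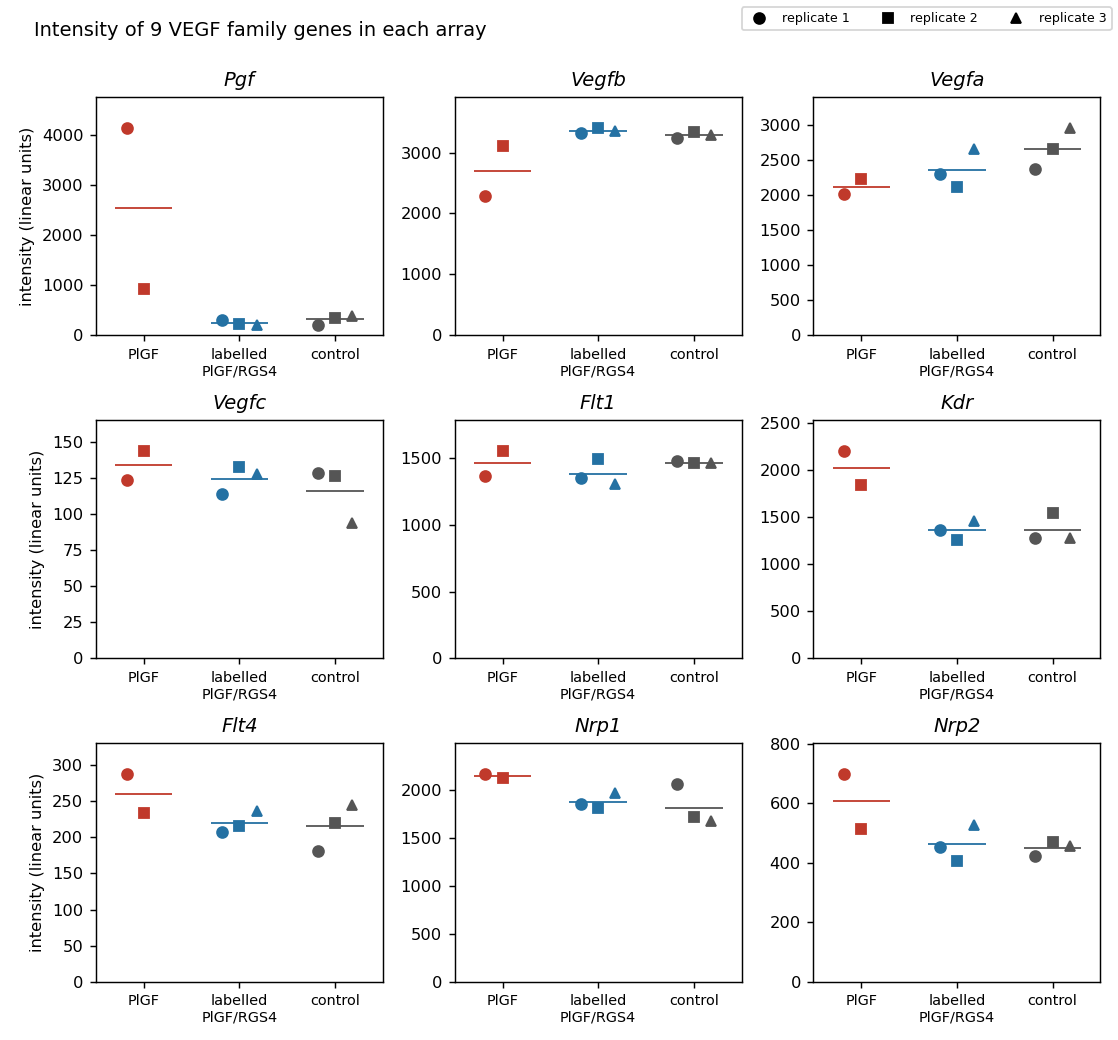
Intensity (linear units, axis from 0) of each of the 9 genes in the 2 PlGF arrays, the 3 arrays labelled PlGF/RGS4 and the 3 control arrays. Each point is 1 array, with its shape giving the replicate number, and each line is the group mean; Kdr reads 2205.9 and 1847.1 in PlGF, above all other arrays, while Flt1 overlaps between all groups.

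Among the other ligand genes, Vegfa encodes the principal angiogenic ligand, which cardiac muscle cells secrete. Vegfa read 2012.1 and 2232.8 in PlGF arrays, 2300.0, 2119.6 and 2654.1 in those labelled PlGF/RGS4, and 2377.5, 2654.1 and 2961.3 in control. Both PlGF arrays were below every control array, whereas the arrays labelled PlGF/RGS4 had a mean in between and overlapped both other groups. PlGF over control gave a log2 fold change of −0.32 ± 0.12 (SE; 95% interval −0.61 to −0.04; limma adjusted p = 0.174). Between PlGF/RGS4 and control it was −0.18 ± 0.11, and between PlGF and PlGF/RGS4 −0.15 ± 0.12, so neighbouring groups in the order PlGF, PlGF/RGS4, control differed by less than the test could call (limma adjusted p = 0.514 and 0.995 for PlGF versus PlGF/RGS4 and for PlGF/RGS4 versus control).

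Vegfb encodes a VEGFR1 ligand known for its high level in heart muscle and its link to fatty acid handling in mice. Vegfb read 2280.6 and 3105.5 in PlGF, against 3245.7, 3347.0 and 3282.5 in control. The arrays labelled PlGF/RGS4 read 3319.5, 3409.1 and 3348.7. Apart from PlGF replicate 1, which was low, the values were close together, and the coefficient of variation was 1.36% in the arrays labelled PlGF/RGS4 and 1.56% in control. The log2 fold change was −0.31 ± 0.11 for PlGF over control (95% interval −0.57 to −0.04; limma adjusted p = 0.173) and −0.34 ± 0.11 for PlGF over PlGF/RGS4 (limma adjusted p = 0.186). Without PlGF replicate 1 the change from control was −0.08, and without PlGF replicate 2 it was −0.53, so the size of the difference rested on 1 array. In the alternatives that kept all 8 arrays, the adjusted p of Vegfb ran from 0.121 to 0.556 over the limma fits and the t-test.

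Vegfc, the gene of the main lymphatic ligand, was dim. Its 8 values ran from 93.7 to 143.6, and its mean exceeded that of 99.2% of 1027 olfactory receptor genes, which served as a floor because heart muscle largely lacks them. Vegfc read 123.6 and 143.6 in PlGF arrays, 113.9, 132.3 and 127.4 in those labelled PlGF/RGS4, and 128.1, 126.2 and 93.7 in control. The 3 groups overlapped, with a log2 fold change of 0.21 ± 0.15 for PlGF over control (95% interval −0.13 to 0.55; limma adjusted p = 0.419).

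Flt1 and Kdr encode the 2 kinases that bind VEGF-A. A promoter window of each is printed because the 2 genes differed in these arrays, as described next. The windows hold the 250 bases before an annotated transcription start in RefSeq's annotation of GRCm38.p6. Both are on the minus strand and written 5′ to 3′ as transcribed. They lie at chr5:147726012-147726261 (Flt1) and chr5:75978456-75978705 (Kdr). Both lie inside the annotated gene spans, which reach 147726438 (Flt1) and 75979072 (Kdr), so these starts are not the outermost. Capitals mark the motifs found on either strand among TATAAA (or TTTATA), the cAMP response element TGACGTCA, the GC box GGGCGG (or CCGCCC) and the HIF core ACGTG (or CACGT).
Flt1: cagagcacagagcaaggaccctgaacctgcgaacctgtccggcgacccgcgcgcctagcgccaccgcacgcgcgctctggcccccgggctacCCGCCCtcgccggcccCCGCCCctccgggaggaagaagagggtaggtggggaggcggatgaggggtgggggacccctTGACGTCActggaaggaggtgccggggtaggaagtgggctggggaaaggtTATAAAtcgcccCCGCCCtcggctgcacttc
Kdr: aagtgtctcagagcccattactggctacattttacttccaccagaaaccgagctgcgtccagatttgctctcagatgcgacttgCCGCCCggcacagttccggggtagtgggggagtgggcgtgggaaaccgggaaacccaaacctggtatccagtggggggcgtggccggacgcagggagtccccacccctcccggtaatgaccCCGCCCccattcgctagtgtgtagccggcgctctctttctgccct
The Flt1 window held 1 TATAAA, 1 TGACGTCA and 3 GC boxes, and the Kdr window held 2 GC boxes and none of the other 3 motifs. Of 32851 windows of the same length, 12.4% held TATAAA, 1.55% TGACGTCA, 32.7% a GC box and 16.6% the HIF core. The 9 genes have 11 such windows between them; 10 of the 11 held a GC box, and TATAAA, TGACGTCA and the HIF core were each found in 1. The cAMP response element and the HIF core share the letters ACGT, but neither contains the other. Such matches describe the letters of these windows only.

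Kdr showed the largest difference from control among the 5 receptor and co-receptor genes in PlGF. It read 2205.9 and 1847.1 in PlGF arrays, 1365.1, 1259.1 and 1458.3 in those labelled PlGF/RGS4, and 1284.5, 1545.0 and 1276.5 in control. Both PlGF arrays were above all 6 others, and the other groups overlapped. The log2 fold change was 0.57 ± 0.12 for PlGF over control, which is 1.48-fold (SE; 95% interval 0.29 to 0.84; limma unadjusted p = 0.00154, adjusted p = 0.0545; exact permutation, two-sided, p = 0.1). For PlGF over PlGF/RGS4 it was 0.57 ± 0.12 as well (limma adjusted p = 0.0717), and for PlGF/RGS4 over control −0.01 ± 0.10, with an interval from −0.25 to 0.24. Both comparisons that include PlGF use the same 2 PlGF arrays. In PlGF versus control Kdr ranked 564 of 19933 genes by p, just outside the 505 genes that passed. It passed under quantile normalization (adjusted p = 0.0498), with each array centred on its median (0.0495) and among genes above the median level only (0.0484). Among the alternatives that kept both PlGF arrays Kdr passed in no others, and its highest adjusted p was 0.524, with the methods' plain two-sample test. Without PlGF replicate 1 the log2 fold change was 0.44, and without PlGF replicate 2 it was 0.69.

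Among the 3 arrays with low Xist, Kdr read 2205.9 in PlGF replicate 1, 1259.1 in PlGF/RGS4 replicate 2 and 1545.0 in control replicate 2. Among the 5 arrays with high Xist, it read 1847.1 in PlGF replicate 2, against 1365.1 and 1458.3 in the arrays labelled PlGF/RGS4 and 1284.5 and 1276.5 in control. The PlGF array was thus the highest in both sets. With a term for low or high Xist in the fit, the log2 fold change of Kdr over control was 0.55 (limma adjusted p = 0.0598). In PlGF the Xist level and the size of the Pgf signal changed together, since the PlGF array with low Xist had the higher Pgf, so those cannot be told apart.

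Flt1 read 1365.2 and 1549.3 in PlGF arrays, 1350.8, 1487.6 and 1303.2 in those labelled PlGF/RGS4, and 1471.8, 1457.9 and 1459.8 in control. The controls agreed to a coefficient of variation of 0.515% and lay between the PlGF arrays. PlGF over control differed by −0.01 ± 0.08 on the log2 scale (SE; 95% interval −0.19 to 0.17; limma adjusted p = 0.962). Its 1 probe set does not separate the membrane receptor from the soluble form.

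Measured within each array, the log2 difference of Kdr minus Flt1, set relative to its control mean, was 0.79 and 0.36 in PlGF arrays, 0.12, −0.14 and 0.26 in those labelled PlGF/RGS4, and −0.09, 0.19 and −0.09 in control. Both PlGF arrays lay above the other 6. The difference between PlGF and control was 0.57 and that between PlGF and PlGF/RGS4 was 0.49, each with a two-sided exact permutation p of 0.1, the smallest these arrays can give (0.45 after Benjamini-Hochberg adjustment over the 9 such tests). A within-array difference is free of array scaling. For Nrp2 minus Nrp1 the PlGF and control values overlapped, with a change of 0.17 (exact permutation p = 0.6). For Vegfb minus Vegfa they overlapped too, with a change of 0.02 (exact permutation p = 0.8).

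**Figure D2:**
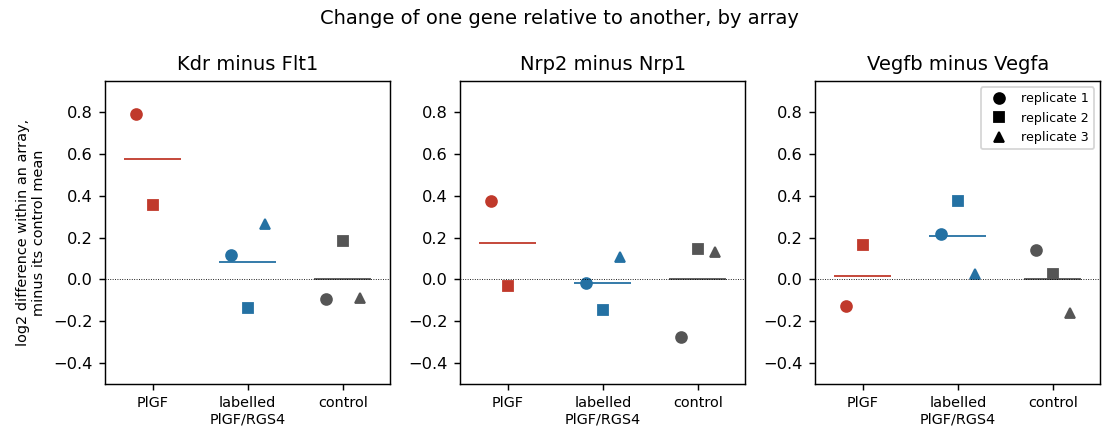
Log2 difference between the 2 genes named above each panel, measured within each array and set relative to its control mean (dotted line at 0), for PlGF, labelled PlGF/RGS4 and control arrays. Points are arrays, shaped by replicate number, and lines are group means; only for Kdr minus Flt1 (0.79 and 0.36) do both PlGF arrays lie above all others.

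Flt4, the gene of the VEGF-C receptor VEGFR3, was dim, from 181.5 to 287.5 over the 8 arrays. It read 287.5 and 234.2 in PlGF arrays, 207.7, 216.4 and 236.2 in those labelled PlGF/RGS4, and 181.5, 220.6 and 244.6 in control. PlGF replicate 1 was the highest array, while PlGF replicate 2 lay inside the range of both other groups. For Flt4 the difference of PlGF from control was 0.28 ± 0.14 on the log2 scale (95% interval −0.05 to 0.60; limma adjusted p = 0.281).

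Nrp2, the neuropilin best known as a partner of VEGFR3, read 696.7 and 514.4 in PlGF arrays, 453.0, 405.8 and 524.9 in those labelled PlGF/RGS4, and 421.3, 470.6 and 454.7 in control. The PlGF arrays were above all controls, but 1 array labelled PlGF/RGS4 lay between them. On the log2 scale the fold change was 0.42 ± 0.15 for PlGF over control (SE; 95% interval 0.07 to 0.76; limma adjusted p = 0.157) and 0.38 ± 0.15 for PlGF over PlGF/RGS4 (limma adjusted p = 0.223). Without PlGF replicate 1 the change from control was 0.20, and without PlGF replicate 2 it was 0.63. Nrp2 passed in none of the alternatives that kept all 8 arrays. The lowest limma adjusted p among them was 0.119, with genes above the median level only.

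Nrp1, the neuropilin that binds VEGF-A together with VEGFR2, was the steadiest gene between the PlGF arrays, at 2160.1 and 2118.1. The arrays labelled PlGF/RGS4 read 1847.2, 1809.5 and 1964.9, and the controls 2056.1, 1715.7 and 1670.7. The PlGF arrays were above all 6 others, though control replicate 1 came close. The log2 fold change was 0.24 ± 0.09 for PlGF over control (95% interval 0.03 to 0.46; limma adjusted p = 0.180) and 0.19 ± 0.09 for PlGF over PlGF/RGS4 (limma adjusted p = 0.296).

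**Figure D3:**
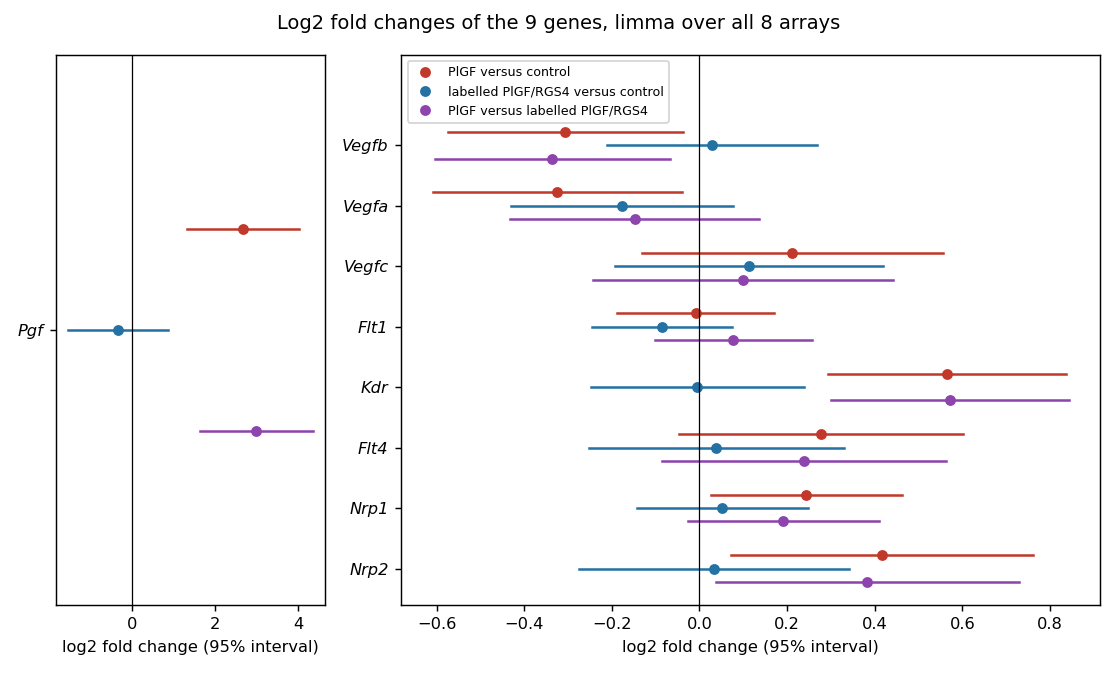
Log2 fold change (x axis, with 95% interval as a bar) of each of the 9 genes from 1 limma fit to all 8 arrays, with 3 colours for the 3 comparisons between PlGF, labelled PlGF/RGS4 and control arrays; Pgf has an axis of its own. The intervals of Pgf (1.32 to 4.02), Kdr (0.29 to 0.84), Nrp1 and Nrp2 lie above 0 in PlGF versus control, those of Vegfa and Vegfb below 0, and all 9 intervals of PlGF/RGS4 versus control include 0.

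Counted over the 9 genes, 4 stood above and 2 below control in PlGF at an unadjusted p under 0.05 (limma), and 3 were not past it. Over all genes the shares were 10.9% higher and 11.7% lower. Arrays of the PlGF and control groups did not overlap for 6 of the 9 genes, against 33.9% of all genes. The median log2 fold change of the 9 was 0.24, against −0.03 over all genes. Pgf, the gene of the transgene product, is included in these counts and in the median, although the mice were built to express it. In PlGF/RGS4 versus control 0 of the 9 were past an unadjusted p under 0.05 in limma (5.02% of all genes) and 0 of the 9 did not overlap (12.8%), with a median of 0.03. In PlGF versus PlGF/RGS4, 3 were higher and 1 lower at that level (8.95% and 10.6% of all genes), and 4 did not overlap (32.5%). The PlGF group has 2 arrays, and they differed in the size of nearly every value: 8 of the 9 genes were farther from the control mean in PlGF replicate 1 than in PlGF replicate 2 (70.9% of all genes), and 8 of the 9 lay on the same side of it in both (70.0%). Without any 1 control array or any 1 array labelled PlGF/RGS4, 0 of the 9 passed the test over all genes in PlGF versus control. The exception to the greater distance was Vegfc and to the shared side Flt1.

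Genes of the pathway were then read from lists of 14 kinds, with the same fit over all genes. Over all genes 2.53% passed it in PlGF versus control (1.79% higher, 0.748% lower), the share to set beside each count below. In PlGF versus control the 26 genes known to be induced by VEGFR2 signalling had 3 that rose, 0 that fell and 23 that did not pass, with a median of 0.30. The 3 were Vcam1 and Icam1, adhesion molecules for leukocytes, and Aplnr, the endothelial receptor for apelin. Vcam1 read 738.2 and 581.6 in PlGF arrays, 318.1, 310.0 and 323.8 in those labelled PlGF/RGS4, and 357.2, 299.8 and 268.4 in control (log2 fold change over control 1.09 ± 0.14, limma adjusted p = 0.0178). Icam1 read 514.3 and 400.1 in PlGF, against 207.5, 244.0 and 246.5 in control (0.96 ± 0.12, limma adjusted p = 0.0178), and Aplnr 981.4 and 996.2, against 421.8, 531.0 and 429.5 (1.11 ± 0.21, limma adjusted p = 0.0436). All PlGF arrays lay above all control arrays for these genes. For Icam1 the arrays labelled PlGF/RGS4, at 248.7, 253.5 and 252.2, were also just above the controls. Icam1 and Vcam1 also passed in PlGF versus PlGF/RGS4 (limma adjusted p = 0.0263 and 0.0226 for Icam1 and Vcam1).

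Among 37 measured genes of VEGF receptor signalling, 2 rose, 1 fell and 34 did not pass, with a median of 0.17. Prkcb, a protein kinase C isoform downstream of phospholipase C gamma, read 285.6 and 172.2 in PlGF, against 111.6, 108.3 and 99.1 in control (1.06 ± 0.19, limma adjusted p = 0.0422). Prkcd, another isoform, was higher by 0.97 ± 0.18 (limma adjusted p = 0.0425). For Prkcd the arrays labelled PlGF/RGS4, at 384.7, 384.8 and 369.1, were all above the controls as well, at 303.9, 317.7 and 332.5. Pik3r1, the regulatory subunit of phosphoinositide 3-kinase, read 1451.5 and 2343.9 in PlGF arrays, 2584.3, 2711.5 and 2204.4 in those labelled PlGF/RGS4, and 3677.9, 3908.1 and 4069.5 in control (−1.07 ± 0.19 for PlGF over control, limma adjusted p = 0.0393). For Pik3r1 the arrays labelled PlGF/RGS4 were all below the controls as well. Of 18 genes that carry VEGF receptors through the cell or restrain them, 0 passed, with a median of 0.18; Ptpn6, a phosphatase of blood cells, differed by 1.09 ± 0.24 (limma adjusted p = 0.0604).

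The genes that regulate Vegfa had 0 of 16 past the test and a median of −0.04. Ppargc1a, a coactivator that induces Vegfa in muscle, read 1523.5 and 2281.1 in PlGF arrays, 2796.2, 2460.0 and 2561.6 in those labelled PlGF/RGS4, and 3031.2, 4519.7 and 5765.6 in control (−1.20 ± 0.27, limma adjusted p = 0.0646). The group means kept the order seen for Vegfa, with PlGF lowest and control highest. For Ppargc1a none of the 3 groups overlapped, whereas for Vegfa the arrays labelled PlGF/RGS4 overlapped both other groups. A link between these genes was not tested. Hif1a, the oxygen-regulated activator of Vegfa, differed by 0.26 ± 0.08 (limma adjusted p = 0.122), and Egln1, the oxygen sensor that marks HIF for breakdown, by −0.62 ± 0.17 (limma adjusted p = 0.0939). The arrays labelled PlGF/RGS4 were also all above the controls for Hif1a (1717.6 to 1756.4 against 1532.1 to 1680.4). For Egln1 they were all below the controls (2923.4 to 3156.8 against 3550.3 to 3817.6). Of 17 hypoxia target genes 1 rose, 0 fell and 16 did not pass, with a median of 0.06. The 1 was Pfkfb3, an activator of glycolysis, at 482.2 and 296.1 in PlGF against 132.7, 177.9 and 178.9 in control (1.22 ± 0.24, limma adjusted p = 0.0460).

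Other ligands and partners of the co-receptors were read from 2 further lists. Of 12 class 3 semaphorin and plexin genes 0 passed, with a median of −0.08. Sema3f, a neuropilin 2 ligand that opposes vessel growth, read 586.2 and 435.6 in PlGF, against 324.4, 397.2 and 386.1 in control (0.46 ± 0.13, limma adjusted p = 0.110). Plxna1, a plexin that pairs with neuropilins, differed by 0.35 ± 0.11 and Sema3g by −0.37 ± 0.14 (limma adjusted p = 0.118 and 0.172 for Plxna1 and Sema3g). For Plxna1 the arrays labelled PlGF/RGS4 were above the controls as well (557.1 to 610.0 against 470.7 to 542.2). Of 8 genes that work with VEGF-C and VEGF-D, such as Ccbe1, which helps to activate VEGF-C, 0 passed, with a median of −0.01.

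The receptors are best known from vessel cells but are not confined to them, so markers of several cell types were read beside them. Of 26 endothelial markers 3 rose, 0 fell and 23 did not pass in PlGF versus control, with a median of 0.09. Cdh5, the endothelial cadherin, read 3986.0 and 4127.0 in PlGF arrays, 3368.6, 3482.5 and 3612.5 in those labelled PlGF/RGS4, and 3336.4, 3314.5 and 3216.6 in control (0.30 ± 0.05, limma adjusted p = 0.0374). Mmrn2 and Ecscr, which encode proteins made by endothelial cells, were higher by 0.41 ± 0.07 and 0.57 ± 0.11 (limma adjusted p = 0.0365 and 0.0426 for Mmrn2 and Ecscr). At an unadjusted p under 0.05 (limma) 9 of the 26 were higher and 3 lower, against 10.9% and 11.7% of all genes. Of the 9, Fli1 came next after the called genes, at 0.35 ± 0.07 (limma adjusted p = 0.0512). For Fli1 the arrays labelled PlGF/RGS4 were above the controls too (618.5 to 634.0 against 537.9 to 551.9). The 3 lower ones were Vwf, which encodes von Willebrand factor (−0.74 ± 0.27), Sox17, a transcription factor of arteries (−0.26 ± 0.08), and Gpihbp1, which anchors lipoprotein lipase in capillaries (−0.24 ± 0.09). Their limma adjusted p was 0.164, 0.128 and 0.156 in that order. Gpihbp1 was also below every control array in those labelled PlGF/RGS4, at 1083.8, 1018.6 and 1028.5 against 1155.5, 1298.7 and 1363.4. Pecam1, an adhesion molecule of all endothelium, differed by −0.03 ± 0.07. The summed endothelial intensity was 40297.2 and 41647.4 in PlGF arrays, 37874.6 to 38904.3 in those labelled PlGF/RGS4 and 38602.6 to 40453.1 in control. Its level depended on 2 bright members, the fatty acid transporter gene Cd36 and the fatty acid binding protein gene Fabp4, which made up 26.9% and 33.5% of it in the PlGF arrays and 35.3% to 36.6% in control (log2 fold changes −0.23 ± 0.11 and −0.17 ± 0.10, limma adjusted p = 0.268 and 0.339 for Cd36 and Fabp4). Without these genes, a choice made after the values were seen, the sum of the other 24 was 29449.2 and 27689.5 in PlGF arrays, 24398.2 to 25103.9 in those labelled PlGF/RGS4 and 24865.2 to 26014.6 in control. With the 26 genes PlGF replicate 1, the array with the highest Kdr, lay inside the control range, and with the 24 it was the highest array. The part of endothelial content in the Kdr values was not tested. In RNA of whole tissue, more cells of a type and more RNA per cell cannot be told apart. Pdgfrb, a receptor of pericytes, was the 1 of 14 pericyte and smooth muscle genes that rose, at 1984.7 and 1822.9 in PlGF against 1447.5, 1519.7 and 1402.3 in control (0.39 ± 0.07, limma adjusted p = 0.0459). The median of that list was 0.16. Abcc9, a potassium channel subunit gene of pericytes and also of cardiac muscle cells, read 2339.3 and 3712.8 in PlGF arrays, 3918.4, 3325.0 and 3959.0 in those labelled PlGF/RGS4, and 4470.8, 4136.7 and 3951.8 in control (−0.50 ± 0.18, limma adjusted p = 0.162), and Acta2, the gene of smooth muscle actin, differed by −0.31 ± 0.32.

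Of 6 measured lymphatic markers 0 passed, with a median of −0.27. Lyve1, a hyaluronan receptor of lymphatic vessels and of resident macrophages, read 775.0 and 783.8 in PlGF arrays, 1050.6, 1124.0 and 825.3 in those labelled PlGF/RGS4, and 1098.2, 1252.8 and 1458.2 in control (−0.69 ± 0.15, limma adjusted p = 0.0633). Both PlGF arrays were the lowest of the 8 for this gene. Reln and Mmrn1, which encode secreted proteins, differed by −0.52 ± 0.14 and −0.56 ± 0.18 without overlap of PlGF and control. The other 3 markers overlapped, with 0.15 ± 0.11 for Pdpn, the gene of podoplanin, −0.02 ± 0.18 for Prox1, the transcription factor that sets lymphatic identity, and 0.00180 ± 0.07 for Foxc2, a transcription factor of lymphatic valves. The summed intensity of the 6 markers was 1927.2 and 2147.9 in PlGF arrays, 2381.3 to 2777.3 in those labelled PlGF/RGS4 and 2596.3 to 2704.4 in control. Without Lyve1, the brightest of them, it was 1152.2 and 1364.1 in PlGF arrays, 1426.8 to 1653.3 in those labelled PlGF/RGS4 and 1246.2 to 1519.8 in control, and PlGF and control overlapped.

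Most markers of leukocytes were higher in the PlGF group. Of 20 macrophage markers 5 rose, 0 fell and 15 did not pass, and of 11 T and NK cell markers 10 rose, 0 fell and 1 did not pass, with medians of 1.31 and 1.92. Not all macrophage markers were higher in PlGF. Cd163, a haemoglobin scavenger receptor of resident macrophages, read 181.6 and 198.9 in PlGF arrays, 203.8, 225.3 and 176.6 in those labelled PlGF/RGS4, and 272.0, 258.3 and 255.8 in control (−0.46 ± 0.10, limma adjusted p = 0.0626), and Mrc1, the gene of the macrophage mannose receptor, differed by 0.13 ± 0.14. The summed macrophage intensity was 25184.5 and 12962.1 in PlGF arrays, 7177.7 to 9296.6 in those labelled PlGF/RGS4 and 8090.4 to 8530.3 in control. For T and NK cells the sums were 4849.4 and 1949.5 in PlGF arrays, 514.3 to 554.9 in those labelled PlGF/RGS4 and 529.7 to 554.3 in control. PlGF replicate 1 was the higher of the PlGF arrays for both lists, as it was for Pgf, Kdr, Flt4 and Nrp2. For Nrp1 it was higher by little, at 2160.1 against 2118.1. The defining markers Ptprc, Csf1r and Cd3e were all measured, and no marker of these lists read 0. Flt1 is also known from monocytes and Nrp1 from some T cells and macrophages. The part of leukocytes in the values of the 9 genes, and of Prkcb, Prkcd, Ptpn6, Icam1 and Vcam1, which leukocytes also express, was not tested. Cardiomyocyte markers had 0 of 16 past the test and a median of −0.17, with sums of 158726 and 188586 in PlGF arrays, 189489 to 189881 in those labelled PlGF/RGS4 and 191266 to 192607 in control. Vegfa and Vegfb, which cardiac muscle cells express, were lowest in the same array as these markers, PlGF replicate 1. Vegfa was also below every control array in PlGF replicate 2 and PlGF/RGS4 replicates 1 and 2, at 2232.8, 2300.0 and 2119.6. The marker sums of those arrays were 188586, 189881 and 189522. The part of cardiac muscle content in the Vegfa and Vegfb values was not tested. Of 9 fibroblast markers 0 passed, with a median of 0.12. Col3a1, Col1a1 and Col1a2, collagen genes, differed by 0.67 ± 0.21, 0.60 ± 0.22 and 0.56 ± 0.22, and Pdgfra by −0.20 ± 0.09. The fibroblast sums were 13689.7 and 13374.2 in PlGF arrays, 13289.1 to 13708.7 in those labelled PlGF/RGS4 and 13039.5 to 13854.7 in control.

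**Figure D4:**
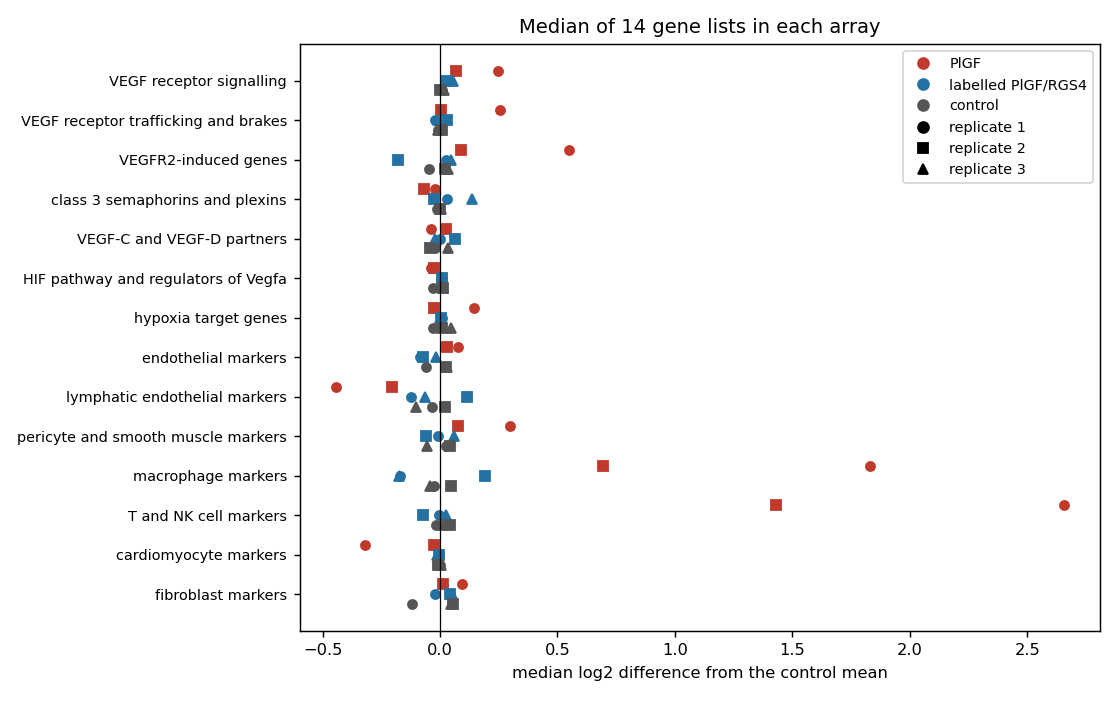
Median log2 difference from the control mean (x axis) of the genes of each of 14 lists, in each array; colours give PlGF, labelled PlGF/RGS4 and control, and shapes the replicate number. T and NK cell markers (2.66 and 1.43) and macrophage markers (1.83 and 0.69) lie farthest right in the PlGF arrays, while endothelial markers (0.08 and 0.03) stay near 0.

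Most calls among list genes were lost when some single arrays were left out. Over the fits that lacked a single array, the macrophage calls in PlGF versus control ran from 0 (without control replicate 3) to 18 (without PlGF replicate 2), and the T and NK cell calls from 1 (without control replicate 2 or 3) to 11 (without PlGF replicate 2). They were 1 and 2 without control replicate 1, 6 and 9 without PlGF replicate 1, and 1 macrophage call with 2 to 4 T and NK cell calls without any 1 array labelled PlGF/RGS4. Gzmb, which encodes a granzyme of cytotoxic cells, kept its call in all 8 of these fits and Ccr2, a chemokine receptor of monocytes, in 7, while Lyz2, Cd4 and Prf1 kept theirs in 1. Outside the leukocyte lists, of the same 8 fits, the call of Vcam1 was kept in 3, those of Icam1, Aplnr, Prkcb, Prkcd and Pik3r1 in 2, and those of Cdh5, Mmrn2, Ecscr, Pdgfrb and Pfkfb3 in 1, the fit without PlGF replicate 2. Without control replicate 3 none of these 11 passed (limma adjusted p from 0.0840 for Icam1 and Vcam1 to 0.152 for Aplnr), and the same held without control replicate 2, with values of 0.0778 for Icam1 and 0.134 for Ecscr. In PlGF/RGS4 versus control 0 genes of all 14 lists passed, but only 0.0151% of all genes did, so this count says little about the lists. In PlGF versus PlGF/RGS4 the counts outside the leukocyte lists were 1 gene of VEGF receptor signalling, Prkcb (1.14 ± 0.19, limma adjusted p = 0.0454), and 2 induced by VEGFR2, Icam1 and Vcam1, all higher. Over all genes 1.19% passed in that comparison (1.1% higher, 0.0853% lower).

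The genes whose pattern over the 8 arrays was most like each of the 9 were taken among 9687 named genes above the median level, by Pearson correlation of log2 values. The arrays share the contrast between PlGF replicate 1 and the rest, and only 8 points enter, so the values describe these arrays. Kdr was most like Sh2b3 (r = 0.990), which encodes an adaptor of cytokine signalling, followed by Stk10 (0.986) and Malt1 (0.974). Without PlGF replicate 1 the r of Kdr with Sh2b3 was 0.975. Pgf was most like Tpm3 (0.996), Dock11 (0.995) and Ptbp3 (0.992). Vegfb was most like Kiz (0.998), Etfa (0.998) and Nmnat1 (0.996), of which Etfa encodes a mitochondrial electron carrier of fatty acid oxidation. Vegfa was most like Me1 (0.993), the gene of cytosolic malic enzyme, Cish (0.973) and Zbtb26 (0.968). For Vegfc the leading gene was Ppp3ca (0.973), for Flt4 Prss23 (0.974), for Nrp1 Asah2 (0.982) and for Nrp2 Gem (0.993). Flt1 had the lowest leading value, 0.945 with Il20rb.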

How the data were processed

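Left ventricular RNA of 8 mice was measured, 1 array each. The deposited intensity values were made by the authors with MAS5, Affymetrix settings and global scaling, and are linear; array medians ran from 111.1 to 115.15. Genome build and scan dates were not given in the sources used here. Of 28440 probe sets, 23398 carried a gene name in GEO's platform annotation; the 21780 with 1 symbol were kept, 1618 with several were left out, and the brightest probe set of a gene was used, giving 19933 genes. Promoter windows are RefSeq's (GRCm38.p6); 9 of 9 genes matched.

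Intensities plus 1 were put on the log2 scale, which understates changes of dim genes. R 4.3.3 and limma 3.58.1 (lmFit, eBayes; prior of 2.41 degrees of freedom) fitted 3 group means to all 8 arrays, and p-values were adjusted over all 19933 genes (Benjamini-Hochberg, threshold 0.05). Exact permutation tests were two-sided, over 10 or 20 arrangements. The script was tested on simulated data. Of 242 genes in 14 lists 234 were measured. Alternatives were other normalizations, offsets, filters and priors, fits of 2 groups only, the methods' two-sample test, a replicate block, a term for Xist and leaving out each array. The labels do not say which arrays share a litter, so the independence of the arrays, which the tests assume, could not be checked. The limma p-values weigh group differences against the spread within groups of these arrays. Genes named beside the 9 were, per list, up to 4 with the smallest p in PlGF versus control and any that passed, 3 checks (Rgs4, Xist, Ptprc), and the 3 genes of most similar pattern per gene; Csf1r, Vwf, Sox17, Gpihbp1, Pecam1, Cd36, Fabp4, Abcc9, Acta2, Prox1, Foxc2, Cd163 and Mrc1 were named after their values were seen, as were the sums without Cd36 and Fabp4 and without Lyve1. The 9 genes, the lists and the tests were chosen with earlier results of these data known. No value columns (0) were left out. The number of arrays limits the precision.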

Additional observations from a re-analysis of the deposited data

Results flagged for a closer look

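Pgf differed between the transgenic groups by 2.99 on the log2 scale (PlGF over PlGF/RGS4). Both PlGF arrays lay above every control array, with a log2 fold change of 2.67 ± 0.58 over control. All 3 arrays labelled PlGF/RGS4 lay below the control mean but overlapped the controls (−0.32 ± 0.52). The test of PlGF against PlGF/RGS4 did not pass (limma adjusted p = 0.0622).

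Vegfb differed the opposite way, by −0.34, with both PlGF arrays below the control mean and all 3 arrays labelled PlGF/RGS4 above it (limma adjusted p = 0.186). The arrays labelled PlGF/RGS4 read 3319.5 to 3409.1 against 3245.7 to 3347.0 in control, so these groups overlapped. Groups of 2 or 3 arrays were too small for a test of single arrays that stand apart.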

How the results depend on the processing

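Of the 9 genes, only Kdr passed in PlGF versus control under an alternative that kept all arrays, making the count 1 under quantile normalization, 1 with each array centred on its median and 1 among genes above the median level, against 0 of 9 in the fit as reported. Flt1 in that comparison was 0.00293 under quantile normalization, against −0.01 as reported. Foxc2 was −0.0250 under quantile normalization, −0.0506 with each array centred on its median and −0.0114 with a term for Xist, against 0.00180, and Prox1 with that term was 0.00967, against −0.02. The macrophage and T and NK cell calls were 0 and 3 with the replicate block, 0 and 0 with only the 2 groups compared and with the methods' t-test, and 12 and 9 with a term for Xist, against 5 and 10. The count over all genes was 505 in PlGF versus control, 3 in PlGF/RGS4 versus control and 237 in PlGF versus PlGF/RGS4. With only the 2 groups compared it was 0, 0 and 1 in that order (3109, 1774 and 2597 at an unadjusted p under 0.05), and with the methods' t-test 4, 0 and 5 (1887, 1345 and 1626). With log2 of the intensity plus 16 the last count was 138, among genes above the median level 110, and with a term for Xist the second was 0 (1078 unadjusted). Centring each array on its median called 376 genes higher and 317 lower in PlGF versus control, against 356 and 149.

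Blocking on the replicate number gave 3 counts of 27, 0 (838 unadjusted) and 26, and Vegfb minus Vegfa in PlGF versus control was −0.0683, against 0.02. The block changed no call of the 9 genes. Deviations of arrays from their group means correlated at −0.22 to 0.30 over the 7 pairs of the same number, and at −0.24 to 0.22 over the 14 other pairs. Of the 8 arrays, 2 correlated best with their own number. The highest value, 0.30, was between control replicate 2 and PlGF/RGS4 replicate 2, both with low Xist. The 2 PlGF arrays deviate by equal and opposite amounts, so their pairs mirror each other. The check therefore cannot decide whether arrays of a number share more than the number.

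Leaving out the arrays one at a time, the number of the 9 that passed ran from 0 to 4 in PlGF versus control, stayed at 0 in PlGF/RGS4 versus control and ran from 0 to 4 in PlGF versus PlGF/RGS4; the 4, without PlGF replicate 2, were Pgf, Vegfb, Kdr and Nrp2 in both. The counts over all genes ran from 17 to 5921, from 0 to 1 and from 11 to 5591. In PlGF versus control the difference Kdr minus Flt1 ran from 0.36 to 0.79, Nrp2 minus Nrp1 from −0.0319 to 0.38 and Vegfb minus Vegfa from −0.13 to 0.17. In PlGF/RGS4 versus control they ran from −0.0106 to 0.19, from −0.16 to 0.0525 and from 0.12 to 0.30, and in PlGF versus PlGF/RGS4 from 0.27 to 0.71, from −0.0125 to 0.40 and from −0.34 to −0.04. Single genes that changed sign were Flt1 (−0.10 to 0.0825), Ccbe1 (−0.38 to 0.13), Pecam1 (−0.10 to 0.00441), Prox1 (−0.23 to 0.19), Foxc2 (−0.0661 to 0.0697) and Acta2 (−0.86 to 0.24) in PlGF versus control, and Vegfc (−0.00793 to 0.21) and Flt1 (−0.0138 to 0.17) in PlGF versus PlGF/RGS4. In PlGF/RGS4 versus control they were Vegfc (−0.0326 to 0.19), Kdr (−0.0563 to 0.0851), Flt4 (−0.0795 to 0.13), Nrp1 (−0.00423 to 0.15) and Nrp2 (−0.0645 to 0.12). Where an array of PlGF is left out, the other is assumed to vary like the remaining groups. The causes of these changes were not tested.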
